A study of Mus musculus with 4 samples.

Results

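*Klf4*, *Nanog*, *Esrrb*, *Tbx3*, *Klf2*, *Klf5*, *Tfcp2l1*, *Zfp42*, *Prdm14* and *Nr0b1* encode transcription factors of the naive pluripotent state, and their RNA was compared between early and late cells of a telomerase-deficient mouse embryonic stem cell (mESC) line. The 10 genes were chosen by name, with earlier results of these data known. Each symbol matched exactly 1 of the 53379 genes in the deposited files. The line, DKO741, is a *Terc*-/- line made from E14 mESCs by targeting both alleles of *Terc*, the telomerase RNA gene, with the construct TR-10. Cells labelled PD100, which were cultured for 100 population doublings and had not yet turned to alternative lengthening of telomeres (ALT, telomere upkeep without telomerase), were set against PD800 cells, which had been cultured for 800 doublings and keep their telomeres by ALT. Each group had 2 libraries of bulk RNA, described as biological duplicates, and the labels speak of passages as well as doublings. All 4 libraries share the *Terc* deletion and the single line, no *Terc*+/+ library was used here, and the cells were kept on mouse embryonic fibroblast feeders for stocks but were feeder-free when RNA was taken. The comparison therefore sets 1 late population against 1 early population of the same line, and doubling number, ALT and anything else that changed over the culture cannot be told apart.

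The naive state is that of the epiblast before implantation, and mESCs keep it in culture. Leukaemia inhibitory factor (LIF), acting through STAT3, and WNT signalling, which relieves the repressor *Tcf7l1*, feed a set of transcription factors that bind each other's genes, while FGF signalling through ERK leads cells out of the state. *Pou5f1* (Oct4) and *Sox2* are shared with the later, primed state, whereas the factors described here are lost or reduced as cells leave the naive state.

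The RefSeq promoter windows (GRCm38.p6) held 7 of the 10 genes. *Klf5*, *Prdm14* and *Tbx3* had no entry. The 250 bases before the RefSeq start are shown for 4 genes that differ in what their RNA did: *Nanog* and *Klf4*, which rose, *Zfp42*, which was not called, and *Klf2*, which was lower but by less than 2-fold. Each runs 5′ to 3′ on the strand of the gene, and capitals mark the motifs described after them. The windows are chr6:122707239-122707488 on the plus strand for *Nanog*, chr4:55532476-55532725 on the minus strand for *Klf4*, chr8:43307010-43307259 on the minus strand for *Zfp42* and chr8:72318812-72319061 on the plus strand for *Klf2*.
*Nanog*: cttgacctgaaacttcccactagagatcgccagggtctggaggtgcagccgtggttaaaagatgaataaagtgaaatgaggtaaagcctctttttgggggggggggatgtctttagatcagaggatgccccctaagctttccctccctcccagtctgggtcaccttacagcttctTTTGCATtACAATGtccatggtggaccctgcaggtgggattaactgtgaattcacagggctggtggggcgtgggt
*Klf4*: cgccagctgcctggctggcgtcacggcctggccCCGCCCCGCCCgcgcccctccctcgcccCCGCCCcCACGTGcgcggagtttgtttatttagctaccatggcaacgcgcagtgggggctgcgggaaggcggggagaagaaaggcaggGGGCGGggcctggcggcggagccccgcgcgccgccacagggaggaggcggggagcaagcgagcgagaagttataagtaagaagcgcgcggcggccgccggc
*Zfp42*: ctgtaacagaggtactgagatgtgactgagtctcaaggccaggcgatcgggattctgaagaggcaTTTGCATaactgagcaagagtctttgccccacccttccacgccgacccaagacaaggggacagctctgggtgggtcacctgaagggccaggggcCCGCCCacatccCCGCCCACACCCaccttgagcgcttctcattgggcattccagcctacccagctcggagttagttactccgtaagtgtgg
*Klf2*: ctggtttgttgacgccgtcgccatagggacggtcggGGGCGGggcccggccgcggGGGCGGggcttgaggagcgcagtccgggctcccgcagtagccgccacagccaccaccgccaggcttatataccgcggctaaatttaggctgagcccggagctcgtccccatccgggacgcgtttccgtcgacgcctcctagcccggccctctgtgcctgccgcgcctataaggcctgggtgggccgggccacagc

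In all, 8 motifs were searched on both strands in the 7 windows and in all 32851 windows of the same length. The *Nanog* window held ATGCAAA, part of the octamer that OCT factors bind, from -75 to -69 and CATTGT, which SOX factors bind, from -67 to -62, both on the strand opposite to the gene and counted from the start. ATGCAAA was found in 4.12% of all windows and CATTGT in 10.7%. The *Zfp42* window held ATGCAAA too, from -185 to -179, and the CACCC-type letters CCACACCC, found in 3.20% of all windows, which overlap a GC box. GC boxes (GGGCGG), which SP and KLF factors bind, were in the windows of *Klf4* (4 matches, of which a pair share a base), *Klf2* (2) and *Zfp42* (2), and in 32.7% of all windows. The *Klf4* window also held CACGTG (6.02% of all windows). Of the windows not printed, that of *Esrrb* held TTCNNNGAA, the spacing that STAT factors bind (7.02% of all windows), and those of *Tfcp2l1* and *Nr0b1* held TATAAA (12.4%). AAGGTCA, the form that *Esrrb* binds, was in none of the 7 windows and in 4.08% of all. These matches describe letters in a window, and binding was not measured here.

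The files give for each gene an expected count, RSEM's estimate of the read pairs that came from it, and TPM, a measure of transcript abundance that takes gene length into account and sums to a common total in every library. The total expected count was between 32454121 and 38492149 in the 4 libraries. Of *Terc* itself, PD100 replicate 1 held an expected count of 1 and the remaining 3 libraries 0. With no *Terc*+/+ library to compare, and since telomerase RNA lacks a poly(A) tail that mRNA sequencing may select for, this does not check the genotype. Levels of different genes are compared below in TPM, and differences between groups are log2 fold changes of PD800 minus PD100 from edgeR's quasi-likelihood test on the counts. A gene was called when the Benjamini-Hochberg adjusted p over all 19148 tested genes was under 0.01 and the fold change over 2. An exact permutation test (two-sided) on groups of 2 cannot reach p < 0.05, since its smallest p is 0.333, so the adjusted p-values depend on how edgeR pools the spread over genes.

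Of the 10 factors, 7 were called higher in PD800 cells and 0 lower by edgeR, and DESeq2 also called 7 and 0. At an unadjusted p under 0.05, 8 were higher and 1, *Klf2*, was lower, where 26.4% of all tested genes were higher and 27.0% lower. All 10 passed the filter on low counts. Among all tested genes, 6.28% were called higher and 8.81% lower. *Klf4*, *Prdm14*, *Nanog*, *Tbx3* and *Esrrb* rose by 4.17-fold to 7.15-fold, and *Nr0b1* and *Tfcp2l1* by 2.45-fold and 2.33-fold. *Zfp42* and *Klf5* did not pass the test, and *Klf2* passed an adjusted p of 0.01 in the other direction with a change under 2-fold. At an adjusted p under 0.01 with no limit on the fold, 13.1% of all genes were higher and 15.4% lower. Without regard to any test, both PD800 libraries lay above both PD100 libraries in scaled counts for 8 of the 10 factors, below them for *Klf2*, and overlapped them for *Klf5* alone. Such separation is common here: 37.4% of all tested genes lay wholly above and 36.4% wholly below. The median log2 fold change of the 10 was 1.68, and that of all tested genes was 0.01. Because the RNA is bulk, a lower or higher share of cells that express a gene and a changed amount of RNA in each cell cannot be told apart.

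**Figure D1:**
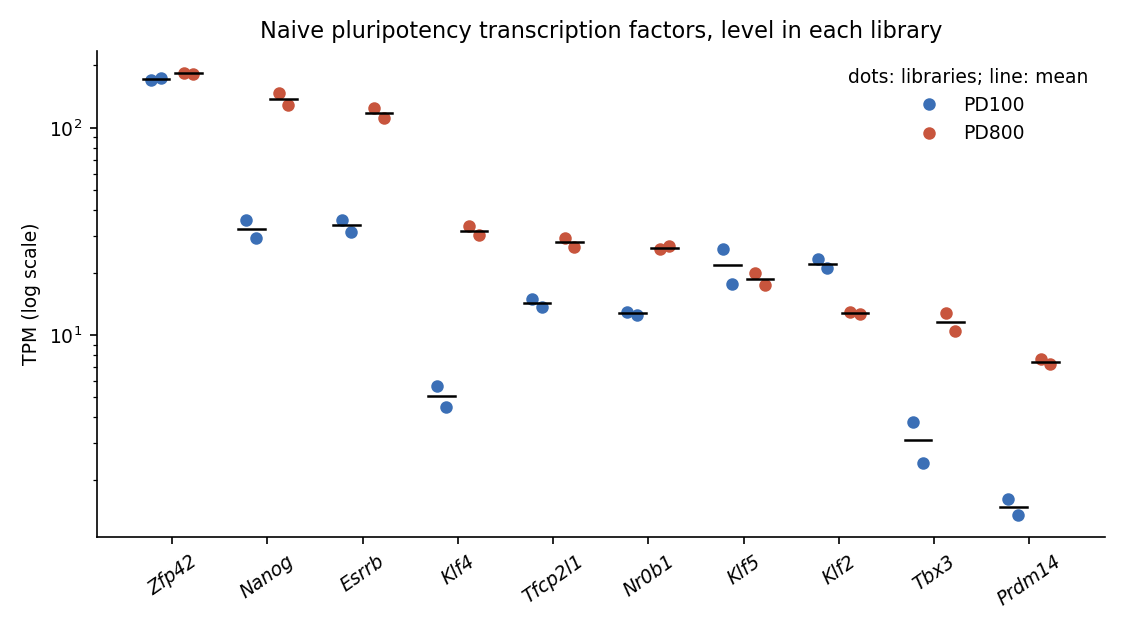
TPM of the 10 factors in each of the 4 libraries on a log axis, with PD100 in blue, PD800 in red and a line at the mean of each group of 2. *Nanog* moves from 29.3 and 35.7 to 129 and 146 TPM, while the 4 *Zfp42* values stay between 170 and 184 TPM and those of *Klf5* interleave.

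*Nanog*, the homeodomain factor that makes mESCs less dependent on LIF, and *Esrrb*, an orphan nuclear receptor that *Nanog* activates and *Tcf7l1* represses, were the most abundant of the factors that rose. *Nanog* lies on chromosome 6 from 122707489 to 122714633 of GRCm38. It had 35.7 and 29.3 TPM in the PD100 libraries against 146 and 129 TPM in the PD800 libraries. Both late libraries were thus far above both early ones. The processed copies *Nanog-ps1* and *Nanog-ps2* held expected counts of 0 to 3 in all 4 libraries. The log2 fold change of *Nanog* was 2.32 (standard error, SE, 0.09), a 5.01-fold difference with a 95% interval of 4.29 to 5.85 and an adjusted p of 4.88e-05 by edgeR's test. *Esrrb* (chromosome 12, 86361117 to 86521628) had 36.1 and 31.5 TPM in PD100 cells and 125 and 112 TPM in PD800 cells. In PD100 cells its range overlapped that of *Nanog*, and in PD800 cells it lay below it. The log2 fold change of *Esrrb* was 2.06 (SE 0.08, edgeR adjusted p = 4.88e-05), which is 4.17-fold with an interval of 3.64 to 4.78. In PD800 cells these genes ranked between the 413th and the 504th most abundant of all tested genes by TPM, against the 1790th to the 2091st in PD100 cells. *Esrrb* also outweighed its paralogs: it made up 83.4% ± 4.50 (SD, n = 2) of the summed TPM of the estrogen-related receptors in PD100 cells and 96.3% ± 0.52 (SD, n = 2) in PD800 cells. *Esrra*, the only other receptor of the family above 1 TPM, had 5.59 and 7.77 TPM in PD100 cells and 4.27 and 4.70 TPM in PD800 cells (log2 fold change -0.35, adjusted p = 0.109 by edgeR).

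The Krüppel-like factors *Klf2*, *Klf4* and *Klf5*, zinc finger proteins that can stand in for each other in holding the naive state, gave 3 outcomes in the same test. *Klf4*, which LIF induces through STAT3, lies on chromosome 4 from 55527143 to 55532466. It had 5.67 and 4.50 TPM in PD100 cells and 33.5 and 30.3 TPM in PD800 cells, a change from the lowest of the 3 KLF genes to the highest. Its log2 fold change of 2.84 (SE 0.12, edgeR adjusted p = 5.22e-05) was the largest of the 10 factors and placed 129th among the 19148 tested genes. This is 7.15-fold, with an interval of 5.86 to 8.72. *Klf2* (chromosome 8, 72319033 to 72321656), which ERK activity is known to destabilise at the protein level, had 23.2 and 21.0 TPM in PD100 cells and 12.9 and 12.6 TPM in PD800 cells. Both late libraries were below both early ones, and the replicates of each group nearly coincided. The log2 fold change of *Klf2* was -0.56 (SE 0.07, edgeR adjusted p = 0.0019), a 1.47-fold lower level that stayed under the 2-fold limit. Without PD800 replicate 1 or without PD800 replicate 2, the adjusted p of *Klf2* was 0.0449 or 0.0348 in the same test, above 0.01. In limma fits of TPM, an alternative to edgeR's test, the adjusted p of *Klf2* was 0.0116 and 0.0117, also above 0.01. *Klf5* (chromosome 14, 99298691 to 99315036), which is also needed in the trophectoderm, had 26.0 and 17.7 TPM in PD100 cells and 19.9 and 17.4 TPM in PD800 cells. Only PD100 replicate 1 stood above the rest, and the groups overlapped. The difference for *Klf5* was 0.02 on the log2 scale (SE 0.14, edgeR adjusted p = 0.925), with a 95% interval from -0.32 to 0.36, which spans from 0.80 to 1.28 times the early level. Without PD100 replicate 1 it was 0.24 and without PD100 replicate 2 it was -0.19.

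As a share of the summed TPM of these 3 genes, *Klf4* was 10.3% and 10.4% at PD100 and 50.6% and 50.3% at PD800. *Klf2* held 42.3% and 48.6% at PD100 but 19.4% and 20.8% at PD800, and *Klf5* held 47.4% and 41.0% and then 30.0% and 28.9%. The sum of the 3 genes went from 54.9 and 43.2 TPM to 66.3 and 60.3 TPM. Across the 17 KLF genes, 16 were tested, 2 were called higher and 2 lower, beside 6.28% and 8.81% of all tested genes. Besides *Klf4*, *Klf15* rose (2.32 and 2.08 TPM to 3.99 and 3.82 TPM, log2 fold change 1.09, adjusted p = 0.000449 by edgeR), but its call was lost with total count normalisation (0.98) and in both limma fits of TPM (0.62 and 0.80). *Klf6* fell from 34.8 and 37.1 TPM to 11.4 and 11.5 TPM (log2 fold change -1.19, adjusted p = 0.000135), and *Klf7* from 4.0 and 3.01 TPM to 1.39 and 1.15 TPM (-1.51, adjusted p = 0.000974), both by the same edgeR test. The call of *Klf7* was lost in both limma fits, and those of *Klf6*, *Klf7* and *Klf15* with a tested fold over 2. The other paralogs of at least 1 TPM were not called. Beside *Klf2* and *Klf5*, *Klf8* had a log2 fold change of 0.68, *Klf3*, *Klf11* and *Klf13* of 0.30 to 0.33, *Klf10* of -0.03, *Klf9* of -0.12, and *Klf16* and *Klf12* of -0.29 and -0.36. The median of the 16 was -0.07. *Klf3* and *Klf10* changed sign in some alternatives given in the closing section.

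**Figure D2:**
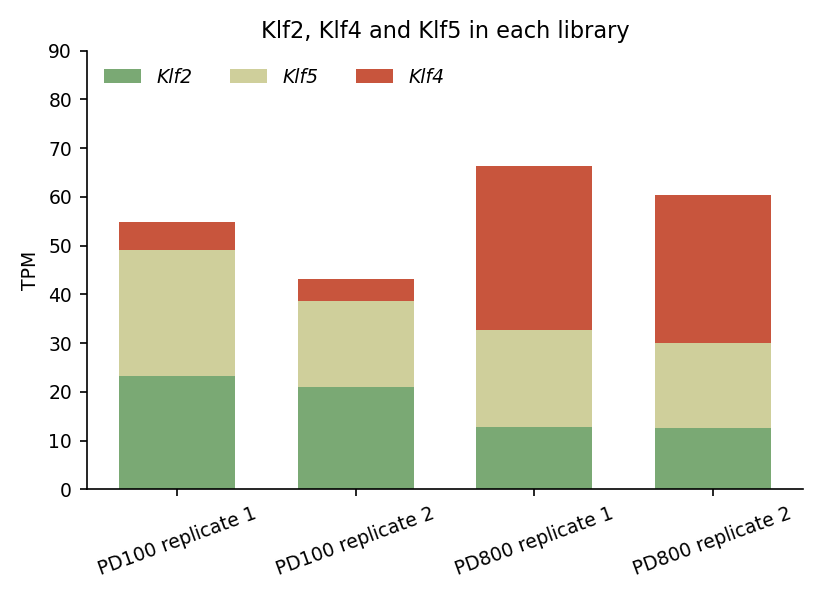
Stacked bars of the TPM of *Klf2* (green), *Klf5* (beige) and *Klf4* (red) in each library, from 0. The red part takes 10.3% and 10.4% of the bar at PD100 and 50.6% and 50.3% at PD800.

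*Tbx3*, a T-box factor linked to LIF and PI3K signalling, and *Tfcp2l1*, a CP2-family factor that LIF and WNT inputs both reach, rose from different starting levels. *Tbx3* (chromosome 5, 119670669 to 119684724) had 3.82 and 2.41 TPM in PD100 cells and 12.8 and 10.4 TPM in PD800 cells. In TPM, the early replicates differed more than for the other factors that rose, yet the lowest late value was well above the highest early value. Its log2 fold change was 2.23 (SE 0.11, edgeR adjusted p = 7.18e-05), or 4.70-fold with an interval of 3.92 to 5.63. The call was lost in both limma fits of TPM (adjusted p = 0.0140 and 0.0153). The antisense gene *Tbx3os1* overlaps *Tbx3*, and no source used here states whether counting used the strand, so reads from the pair cannot be told apart, though *Tbx3os1* was assigned expected counts of only 4 to 20 in the 4 libraries. *Tbx3* was 48.8% ± 3.37 (SD, n = 2) of the summed TPM of 13 T-box genes in PD100 cells and 85.3% ± 0.70 (SD, n = 2) in PD800 cells. *Tbx20*, the only other T-box gene that reached 1 TPM in either group, fell from 2.10 and 1.6 TPM to 0.95 and 0.46 TPM (log2 fold change -1.28, adjusted p = 0.000897 by edgeR), a call lost in both limma fits and with a tested fold over 2.

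*Tfcp2l1* (chromosome 1, 118627945 to 118685168) had 14.9 and 13.6 TPM in PD100 cells and 29.3 and 26.7 TPM in PD800 cells, with no overlap and close replicates. Its log2 fold change was 1.22 (SE 0.08, edgeR adjusted p = 0.000157), or 2.33-fold with an interval of 2.04 to 2.66. When a fold over 2 was itself put to the test, the adjusted p of *Tfcp2l1* was 0.0419, above 0.01. Both limma fits of TPM also lost its call (log2 fold changes 0.93 and 0.97). Of the other CP2 and grainyhead genes, *Grhl2*, an epithelial factor, fell from 10.8 and 9.84 TPM to 0.99 and 0.75 TPM (log2 fold change -3.52, adjusted p = 3.11e-05 by edgeR). *Ubp1*, *Tfcp2*, *Grhl1* and *Grhl3* were not called, with log2 fold changes of 0.26, 0.32, -0.78 and 0.99. *Tfcp2l1* thereby went from 26.5% ± 1.79 (SD, n = 2) to 45.4% ± 0.60 (SD, n = 2) of the family's summed TPM.

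*Prdm14*, a PR-domain protein that represses FGF signalling and the DNA methyltransferase gene *Dnmt3b*, was the least abundant of the 10 in both groups and had the second-largest fold change. It lies on chromosome 1 from 13113457 to 13127163. Its expected counts of 200 and 155 at PD100 stood against 1025 and 920 at PD800, which in TPM was 1.61 and 1.35 against 7.64 and 7.25. The values of each group lay close together, and the log2 fold change was 2.57 (SE 0.09, edgeR adjusted p = 4.46e-05), or 5.94-fold with an interval of 5.08 to 6.95. *Dnmt3b* fell from 53.9 and 53.3 TPM to 14.23 and 13.96 TPM (log2 fold change -1.76, adjusted p = 6.55e-05 by edgeR). Of the 14 PRDM genes, 10 were tested, 2 were called higher and 1 lower, beside 6.28% and 8.81% of all tested genes. Of these 3 calls, limma on TPM left that of *Prdm14* alone. *Prdm16* rose (0.66 and 0.62 TPM to 2.34 and 1.26 TPM, log2 fold change 1.74, adjusted p = 0.000496 by edgeR) and *Prdm1*, a germ-cell and endoderm factor, fell (1.45 and 1.28 TPM to 0.39 and 0.32 TPM, -1.64, adjusted p = 0.000389). Of the paralogs of at least 1 TPM that were not called, *Prdm15* was at 0.97 on the log2 scale, just under the 2-fold limit, and *Prdm2*, *Prdm4*, *Prdm10* and *Prdm11* lay between -0.10 and 0.43.

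*Nr0b1* (Dax1), an orphan nuclear receptor without a usual DNA-binding domain that binds Oct4, is on chromosome X from 86191764 to 86195947. It had 12.9 and 12.5 TPM in PD100 cells and 26.0 and 26.8 TPM in PD800 cells, with the replicates of each group almost equal. The log2 fold change was 1.29 (SE 0.09, edgeR adjusted p = 0.000189), or 2.45-fold with an interval of 2.11 to 2.84. With a fold over 2 put to the test, its adjusted p was 0.0234, above 0.01. On log2(TPM + 1), *Nr0b1* was at 0.998, just under the 2-fold limit, and lost its call in the limma fit. Its single paralog *Nr0b2* had 0.02 to 0.04 TPM in the 4 libraries and was not tested.

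*Zfp42* (Rex1), a zinc finger protein of the YY1 family that is widely used as a marker of the naive state but is not needed for it, was the most abundant factor in both groups. On chromosome 8 from 43295063 to 43306980, it had 170 and 173 TPM in PD100 cells and 184 and 182 TPM in PD800 cells. All 4 values were within a narrow band, although both late libraries were the higher. The log2 fold change was 0.33 (SE 0.09, edgeR adjusted p = 0.0312), with a 95% interval of 0.10 to 0.57, which stays under 2-fold. *Yy1*, the ubiquitous founder of the family, was at 0.84 on the log2 scale (adjusted p = 0.000394 by edgeR, not called because of its fold) and *Yy2* at 0.39 (adjusted p = 0.0398). *Zfp42* was 91.6% ± 1.3 (SD, n = 2) of the summed TPM of this family in PD100 cells and 89.5% ± 0.60 (SD, n = 2) in PD800 cells.

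Ordered by TPM, PD100 cells ran from *Zfp42* through *Esrrb*, *Nanog*, *Klf2*, *Klf5*, *Tfcp2l1*, *Nr0b1*, *Klf4* and *Tbx3* to *Prdm14*. *Esrrb* and *Nanog*, and *Klf2* and *Klf5*, were neighbours whose ranges overlapped. In PD800 cells the order was *Zfp42*, *Nanog*, *Esrrb*, *Klf4*, *Tfcp2l1*, *Nr0b1*, *Klf5*, *Klf2*, *Tbx3* and *Prdm14*, and the pairs *Tfcp2l1* and *Nr0b1*, and *Klf2* and *Tbx3*, overlapped. *Klf4* went from place 8 to place 4, and *Klf2* from place 4 to place 8. The summed TPM of the 10 was 329.6 and 306.8 at PD100 and 597.4 and 554.8 at PD800. *Zfp42* held 51.5% and 56.4% of this sum at PD100 and 30.8% and 32.9% at PD800, while *Nanog* and *Esrrb* together with it made up the larger part of the sum in every library. The share of *Nanog* was 10.2% ± 0.91 (SD, n = 2) and then 23.9% ± 0.87 (SD, n = 2), and that of *Esrrb* 10.6% ± 0.48 and then 20.5% ± 0.55.

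**Figure D3:**
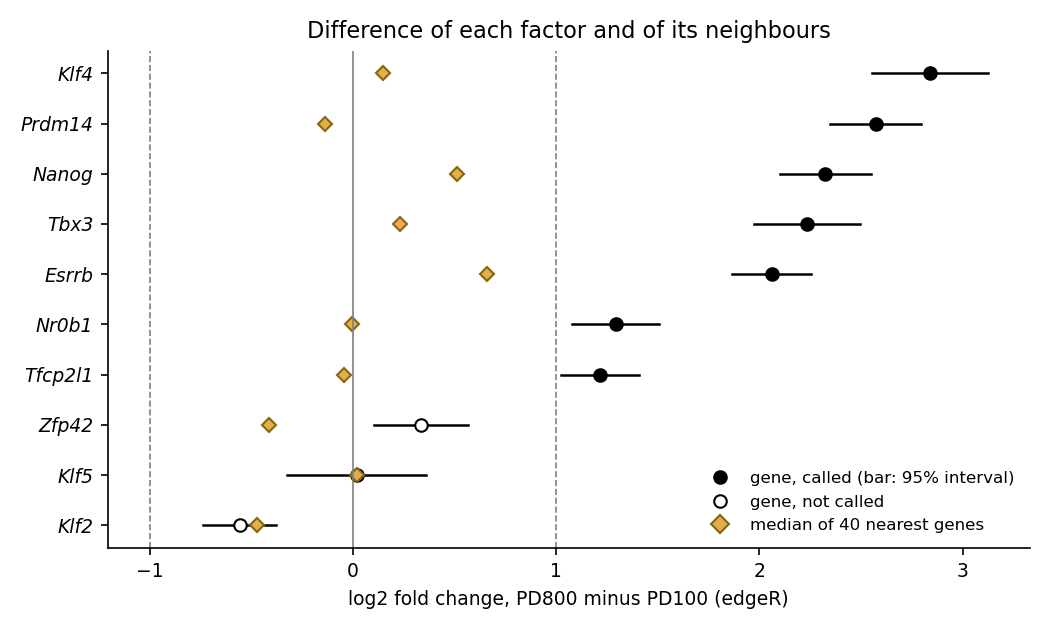
Log2 fold change of PD800 minus PD100 for each factor (circles, filled where called, with the 95% interval) and the median over the 40 nearest tested genes (diamonds), with dashed lines at a 2-fold difference. The 7 called genes lie right of the line at 1, and the diamonds lie between -0.47 and 0.66.

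Each factor was also set beside the genes that lie nearest to it on its chromosome. The 40 nearest tested genes had median log2 fold changes between -0.14 and 0.23 around *Klf4*, *Tbx3*, *Klf5*, *Tfcp2l1*, *Prdm14* and *Nr0b1*. The median was 0.51 around *Nanog* and 0.66 around *Esrrb*, where 4 and 5 of 40 neighbours were called higher and 5 and 5 lower. With the neighbours' median taken off, *Nanog* was at 1.81 and *Esrrb* at 1.40, with an SD over the 4 pairings of an early with a late library of 0.0765 and 0.0691. The pairings share libraries and so are not independent. Their SD was taken on log2 scaled counts, not on edgeR's fold changes. The neighbours of *Klf2* had a median of -0.47, and taking it off left -0.083 with an SD of 0.0682. *Zfp42* lay among genes with a median of -0.41, 6 of which were called lower, and was 0.75 above them with an SD of 0.114. Every one of the 10 genes lay at least 25.4 Mb from the last annotated base of its chromosome.

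Of 26 tested genes of the LIF, WNT and FGF inputs to these factors, 1 was called higher and 2 lower, beside 6.28% and 8.81% of all tested genes, which is near the background. Of 7 genes of the LIF and STAT3 input, 0 were called by edgeR's test on both criteria, although 4 passed the adjusted p alone, and the median log2 fold change was 0.08. DESeq2 called 0 as well, and at an unadjusted p under 0.05 in edgeR 3 were higher and 2 lower. *Socs3*, a feedback target of STAT3, was at 0.64 (28.5 and 28.1 TPM against 37.5 and 36.8 TPM, adjusted p = 0.00184), and *Pim3* at 0.08 (adjusted p = 0.721), both by edgeR. Of 7 genes of the WNT input, *Tcf7* was the only gene called, and it was lower (5.80 and 3.50 TPM against 2.01 and 1.40 TPM, log2 fold change -1.20, adjusted p = 0.00953 by edgeR). Its call was lost with DESeq2's size factors, with mitochondrial genes left out, in both limma fits, with a tested fold over 2, and without PD100 replicate 1 (-0.85) or PD800 replicate 2 (-0.99). Of 12 genes of the FGF and ERK input, *Fgf4*, the ligand, rose from 20.4 and 19.7 TPM to 54.4 and 52.7 TPM (log2 fold change 1.66, adjusted p = 6.95e-05 by edgeR). The ERK-induced gene *Egr1* fell from 4.59 and 2.66 TPM to 0.56 and 0.38 TPM (-2.69, adjusted p = 0.000687), and the other 10 were not called. Of 12 genes known to drive the exit from the naive state, edgeR and DESeq2 each called 0, with 3 past an adjusted p of 0.01 by edgeR at a smaller fold and 2 higher and 4 lower at an unadjusted p under 0.05. *Rbpj* (0.85) and *Tcf15* (0.39) were the most abundant of them on average.

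Other pluripotency genes were called in part, beside 6.28% called higher and 8.81% called lower among all tested genes. Of 8 general pluripotency genes, *Fgf4* was the only gene called, and the median log2 fold change was 0.36. Of 18 other naive-state genes, 6 were called higher and 1 lower, with a median of 0.60. Both limma fits of TPM left 1 of the 6, *Tcl1*, and a tested fold over 2 left 2. The highest were *Tcl1*, a cofactor of AKT (9.91 and 9.45 TPM to 35.2 and 33.6 TPM, log2 fold change 2.14, adjusted p = 4.46e-05 by edgeR), the DNA demethylase *Tet2* (2.13, adjusted p = 0.000309) and the junction protein *Jam2* (1.40, adjusted p = 0.000316). *Dppa3* (Stella), which is expressed in a part of naive cells and in germ cells, fell from 14.5 and 16.6 TPM to 2.94 and 2.96 TPM (-2.17, adjusted p = 0.00026). Of 14 genes of the formative and primed states, 2 were called higher and 5 lower, with a median of -0.76. On TPM, limma left 2 of the 5 lower genes, and 0 or 1 of the 2 higher ones by pseudocount, and a tested fold over 2 left 2 and 1. *Pou3f1* (Oct6) fell from 6.08 and 6.17 TPM to 0.63 and 0.84 TPM (-2.82, adjusted p = 0.000123 by edgeR) and *Fgf5* from 0.52 and 0.53 TPM to 0.06 and 0.11 TPM (-1.86, adjusted p = 0.0069), of which *Fgf5* lost its call with DESeq2 (adjusted p = 0.0129) and without PD800 replicate 1 (adjusted p = 0.0393). *Zic2* and *Zic5*, which belong to the same list, rose by 1.99 and 1.59 (adjusted p = 0.000202 and 0.00042).

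**Figure D4:**
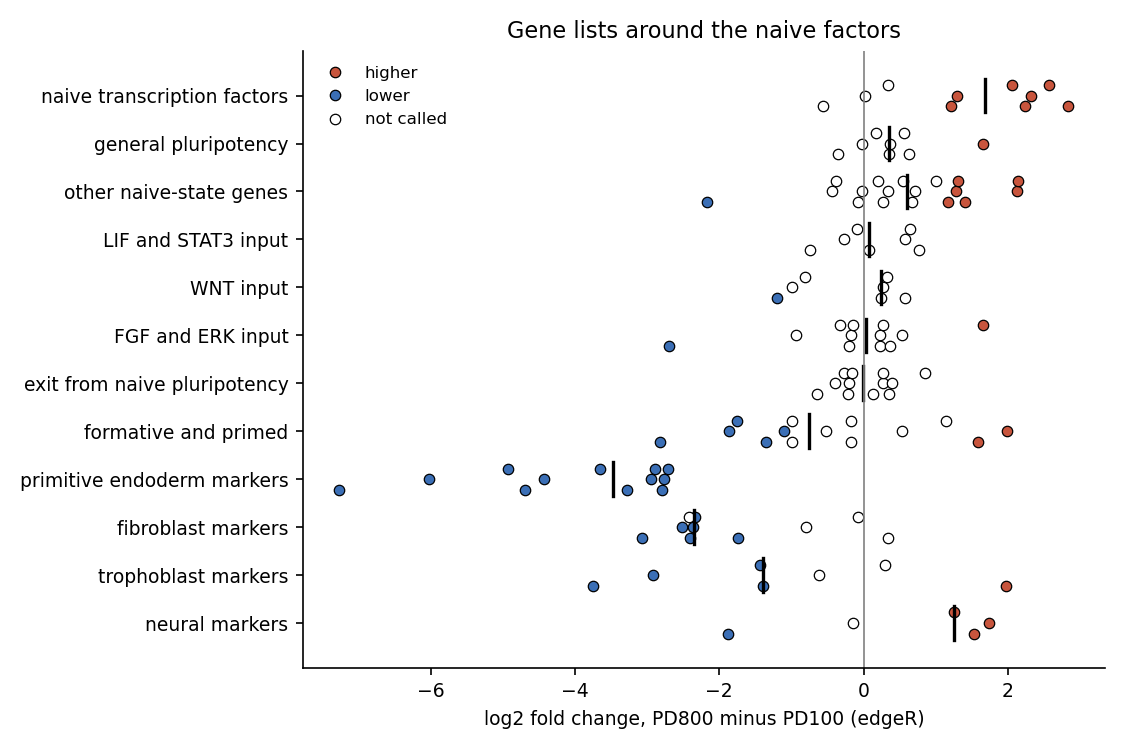
Log2 fold change of PD800 minus PD100 for every tested gene of 12 lists, each list in a row with a black line at its median. Red circles were called higher, blue called lower and white not called. The naive factors have a median of 1.68, and all 12 primitive endoderm markers lie on the left.

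Many markers of other cell types also differed between the groups. Of all tested genes, 6.28% were called higher and 8.81% lower. All 12 primitive endoderm markers were called lower in the late cells (median log2 fold change -3.47, with 11 of 12 called in each limma fit), and their summed TPM went from 467.4 and 460.0 to 42.5 and 41.9. The defining factors *Gata6*, *Gata4*, *Sox17* and *Foxa2* were above 1 TPM in both PD100 libraries and below 1 TPM in both PD800 libraries. *Foxa2* had expected counts of 230 and 147 at PD100 and of 1 in each PD800 library, under the floor of 3 counts, so no fold is given (edgeR adjusted p = 8.98e-05). *Sox17* (log2 fold change -6.03) and *Pdgfra* (-4.93) followed, each with an edgeR adjusted p of 3.03e-05. Of the 10 fibroblast markers that were tested, which feeder cells would carry, 6 were called lower. *Acta2*, smooth muscle actin, was the most abundant of them and fell from 24.02 and 21.62 TPM to 3.65 and 3.87 TPM (log2 fold change -2.36, adjusted p = 4.88e-05 by edgeR). Their summed TPM went from 37.9 and 35.5 to 7.77 and 8.06, and *Lum* was at 0 in 3 libraries. *Col1a1* (1.81 and 2.97 TPM to 0.22 and 0.32 TPM), *Col3a1* and *Twist2* had the lowest values among the markers that were called (log2 fold changes -3.07, -2.52 and -2.40, adjusted p = 0.00101, 0.0011 and 0.00237 by edgeR), and *Twist2* lost its call without PD800 replicate 1 or PD800 replicate 2 (adjusted p = 0.0138 and 0.0139). Each limma fit left 2 of the 6 calls, and a tested fold over 2 left 5. Of the 7 trophoblast markers tested, *Krt7*, *Hand1*, *Cdx2* and *Ascl2* were called lower and *Eomes* higher. *Cdx2* lost its call with DESeq2 (adjusted p = 0.0345), and in each fit without PD100 replicate 1, PD800 replicate 1 or PD800 replicate 2. Each limma fit left 2 of the lower calls and not that of *Eomes*. A tested fold over 2 left 2 of the lower calls and that of *Eomes*. The trophoblast list summed to 17.7 and 17.1 TPM and then 10.9 and 10.03 TPM. Of the 5 neural markers tested, *Sox1*, *Pax6* and *Tubb3* were called higher and *Nes* lower (all 3 higher calls were lost in both limma fits and with a tested fold over 2, and that of *Pax6* also without PD800 replicate 2, adjusted p = 0.0137), with sums of 30.7 and 28.8 TPM and then 39.9 and 38.04 TPM. The part that any of these cell types has in the values of the naive factors was not tested. *Pou5f1* and *Sox2*, which define the labelled cell type, were at 305.5 and 295.7 TPM and at 63.0 and 43.5 TPM in the PD100 libraries, and at 325.4 and 324.6 TPM and at 71.9 and 66.8 TPM in the PD800 libraries. Their log2 fold changes were 0.35 (adjusted p = 0.0194) and 0.63 (adjusted p = 0.0102) by edgeR, and neither was called.

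The 7 calls held in every setting that used counts, including each library left out in turn, except where a fold over 2 was itself tested, which left 5. On the TPM scale the median of all genes was itself below 0, at -0.11 for log2(TPM + 1) and -0.22 for log2(TPM + 0.1), and all 10 factors had lower values than on the count scale. With limma on log2(TPM + 1), 4 of the 7 were called, and with log2(TPM + 0.1), 5.

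**Figure D5:**
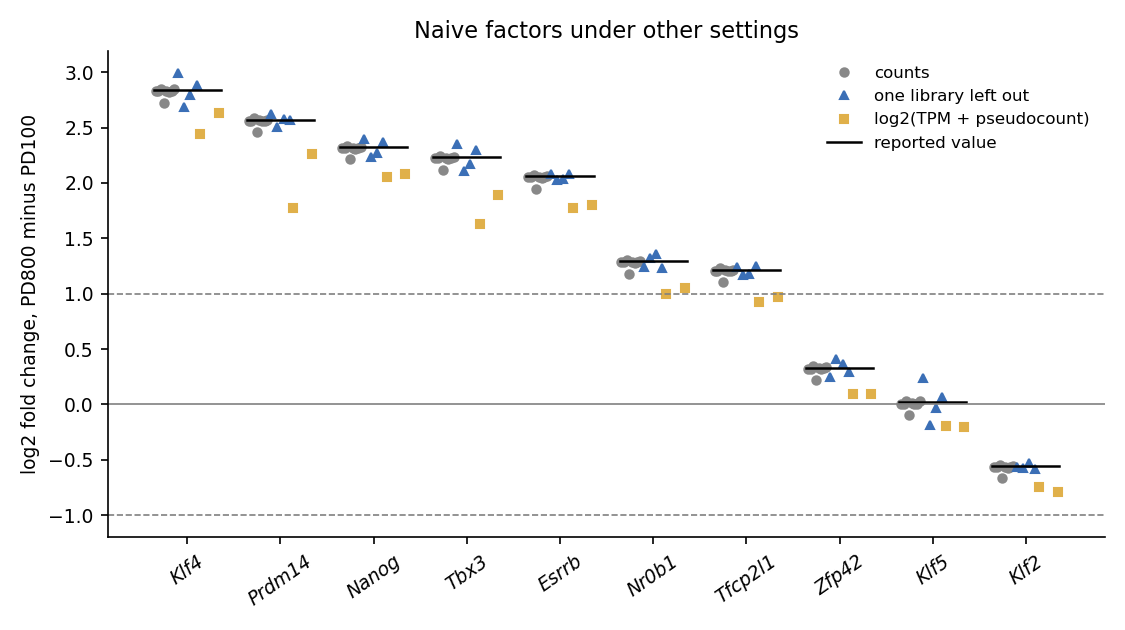
Log2 fold change of each factor (y axis, PD800 minus PD100) under the other settings that used counts (grey circles), with 1 library left out (blue triangles) and on the log2(TPM + pseudocount) scale (yellow squares), beside the reported value (line). The 5 factors with the largest rises stay above 1.5 in every setting, those of *Nr0b1* and *Tfcp2l1* come down to 1.00 and 0.93 on the TPM scale, and *Klf5* lies on both sides of 0.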

How the data were processed

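RNA of DKO741 cells at PD100 and PD800 (2 libraries each) was sequenced as 101-base read pairs. The labels name total RNA, while the study describes mRNA sequencing. The authors aligned reads to mm10 with STAR 2.5.3a, and deposited RSEM 1.3.0 expected counts, which divide reads shared between genes, and TPM values per gene. Neither the annotation nor the strand setting is given in the sources used here, and a submitters' note also names DESeq2 1.18.1.

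Expected counts were rounded and tested with edgeR 4.0.16 under R 4.3.3 (genes kept by filterByExpr at min.count 10, TMM factors of 0.960 to 1.05, quasi-likelihood test, Benjamini-Hochberg adjustment). A floor of 3 counts equalled 0.0743 to 0.0933 CPM and covers counting error only. P-values measure the spread between these libraries. Mitochondrial genes took 11.0% to 17.7% of counts. Alternatives were DESeq2 1.42.0, other normalisations and filters, limma 3.58.1 on log2(TPM + 1) or log2(TPM + 0.1) for genes with a mean of at least 0.1 TPM in either group, the replicate number as a block, other thresholds, and each library left out. The script was tested on simulated data. Coordinates and neighbours come from GENCODE M21 (GRCm38).

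The members and the 18 other gene lists were chosen with earlier results of these data known. Named are all members, the 3 highest and 3 lowest called genes of each other list (or, with none called, the 2 of highest mean TPM), and every paralog with a mean of at least 1 TPM in either group, except 1 that is not reported here. *Pou5f1* and *Sox2*, *Nr0b2*, *Tbx3os1* and the *Nanog* copies, the factors *Gata6* and *Gata4*, *Lum*, *Acta2* and *Ascl2* were named outside that rule, after their values were seen.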

Additional observations from a re-analysis of the deposited data

How the results depend on the processing

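Across 16 alternatives, the number of the 10 factors called higher was 7 in all but 4. It was 4 with limma on log2(TPM + 1), 5 with limma on log2(TPM + 0.1) and 5 when a fold over 2 was tested, and 8 at an adjusted p under 0.05 with any fold, where 1 was lower. With limma, *Tbx3* was at 1.63 and 1.89 (adjusted p = 0.0140 and 0.0153), *Tfcp2l1* at 0.93 and 0.97, and *Nr0b1* at 1.00 on log2(TPM + 1), and none of these values was called. *Klf5* turned to -0.095 with total count normalisation, to -0.19 and -0.20 with limma, and to between -0.19 and 0.24 with single libraries left out. The adjusted p of *Zfp42* ranged from 0.000504 to 0.400 over its alternatives. With 20 neighbours in place of 40, the difference from the neighbours was 1.99 for *Nanog*, 1.57 for *Esrrb*, 0.94 for *Zfp42* and 2.54 for *Prdm14*.

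Over all genes, limma gave 207 and 267 higher and 712 and 936 lower genes in place of 1202 and 1686. A tested fold over 2 gave 386 and 685, and an adjusted p under 0.05 gave 4224 and 4515. Higher genes were 41.6% of the calls, 33.2% with total count normalisation (which moved the median of all genes to -0.10), and 22.5% and 22.2% with limma. Among listed genes other than the 10 factors, 15 were called higher and 36 lower. Limma gave 2 and 3 higher and 22 and 22 lower, a tested fold gave 6 higher, and the adjusted p of 0.05 gave 45 and 55. Of paralogs and listed genes that were not called, *Pim3* turned to -0.029 with total count normalisation and to -0.14 and -0.14 with limma, and lay between -0.13 and 0.31 with single libraries left out. *Klf3* turned to -0.12 and -0.13 and *Prdm11* to -0.056 and -0.10 with limma, and *Klf10* lay between -0.22 and 0.16 with single libraries left out. Of 33 other named genes that were called, 20 lost the call with limma on at least 1 of the TPM scales. In another setting 6 lost it, without counting the tested fold over 2, in which further named genes lost theirs. The cause of these changes was not tested.

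Same-numbered libraries deviated together across genes (correlation 0.265), but the labels tie the numbers to no batch. With 2 libraries per group, both pairs give this same value by construction. What same-numbered libraries share beyond the number was not tested. A fit with the replicate block called 1461 genes higher and 1956 lower, and the same 7 and 0 of the factors. Depth limits little for these 10 genes, whose lowest expected count was 155. The number of libraries limits the precision.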
